A study of Mus musculus with 4 samples.

Results

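The genes described here are those of the FGF21 receptor complex, Fgfr1 and Klb, and of 8 secreted factors known from thermogenic fat (batokines): Fgf21, Bmp8b, Nrg4, Il6, Gdf15, Metrnl, Slit2 and Pm20d1. They were chosen by gene symbol, and all 10 were found among the 51912 genes of the deposited table, each on 1 identifier. The study measured RNA by sequencing in the subcutaneous white fat of C57BL/6 mice aged 8 weeks, given BML-260, a small molecule described as blocking the phosphatase DUSP22, or the vehicle, dimethyl sulfoxide (DMSO). Each treatment had 2 libraries, so BML-260 A and B are set against vehicle A and B. The design text counts 8 mice, with 4 on each treatment. How these mice map onto the 4 libraries is not stated, nor are dose, route and duration. The p-values therefore reflect library-to-library spread only, which may be technical.

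FGF21 is an endocrine fibroblast growth factor. It does not bind its receptor tyrosine kinase FGFR1 stably alone, and needs the coreceptor beta-Klotho, encoded by Klb, on the same cell; adipocytes carry both, which makes fat a main target of the hormone. Brown and beige adipocytes also secrete factors of their own when they are activated, which act on nerves, vessels, immune cells, the liver and the adipocytes themselves.

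Across the 4 libraries, total expected counts lay between 19999836 and 23726781. The fat markers were present throughout, with Adipoq at 1662 and 2193 CPM in the BML-260 libraries and 3022 and 2744 CPM in the vehicle libraries (CPM, read counts scaled to library size with TMM factors). Ucp1, the proton carrier of thermogenic adipocytes, lay at 250.5 and 262.6 CPM with BML-260 and 7.88 and 9.68 CPM with vehicle. The muscle enzyme gene Ckm had 4019 and 6304 CPM with BML-260 and 42.6 and 1476 CPM with vehicle. Transcripts of other tissues moved with the libraries. All 19 genes of a skeletal muscle marker list were higher in both BML-260 libraries, and their summed level was 34747 and 53390 CPM with BML-260 against 460.0 CPM in vehicle A and 12410 CPM in vehicle B. The summed level of 9 B cell markers was 195.6 CPM in BML-260 A, 3.33 CPM in BML-260 B, and 1.95 and 2.68 CPM in the vehicle libraries; 3 of these markers, Blk, Cr2 and Fcer2a, had 0 reads in a vehicle library. Markers of mammary and skin epithelium summed to 2.31 and 1.82 CPM with BML-260 and 3.28 and 2.07 CPM with vehicle.

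Klb had the most distinct difference of the 10 genes, at about 48.8% of the vehicle level. Fgfr1 lay at 75.7% of it. Of the secreted factors, Gdf15 was higher with BML-260 from few reads, Pm20d1 was slightly higher, Nrg4, Metrnl and Slit2 had overlapping groups, and Fgf21, Il6 and Bmp8b were at or near the limit of detection. After removal of genes with low counts, 7 of the 10 could be tested, both receptor genes and 5 of the 8 secreted factors. By edgeR's quasi-likelihood F test, 0 of the 7 passed an adjusted p of 0.05 (Benjamini-Hochberg over all tested genes), a threshold that 0.00639% of the 15643 tested genes passed, 1 gene, Ucp1. Unadjusted p-values under 0.05 were found for 3 of the 7, against 11.1% of all tested genes. Of these, Klb and Fgfr1 were lower, a direction in which 3.61% of all tested genes passed, and Gdf15 was higher, as were 7.45%. With DESeq2, 1 of the 7, Klb, passed an adjusted p of 0.05, against 2.59% of all tested genes, or 0.499% for lower genes alone. DESeq2 gave 3 of the 7 an unadjusted p under 0.05, against 10.6% of all tested genes. Without a filter on low counts edgeR called 1, Klb, against 2.66% of the genes then tested. The groups did not overlap in CPM for 4 of the 7, against 44.3% of all tested genes. Gdf15 is among the 3 and the 4 genes of these counts. Having 1 read in vehicle A, it could pass the filter only with reads of the BML-260 libraries, where it was high. With a mean count of 50 or more Gdf15 was not tested, and 2 genes had an unadjusted edgeR p under 0.05. Without vehicle A, or without BML-260 A, only Klb of the 7 had an unadjusted edgeR p under 0.05, so that count was 1.

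**Figure D1:**
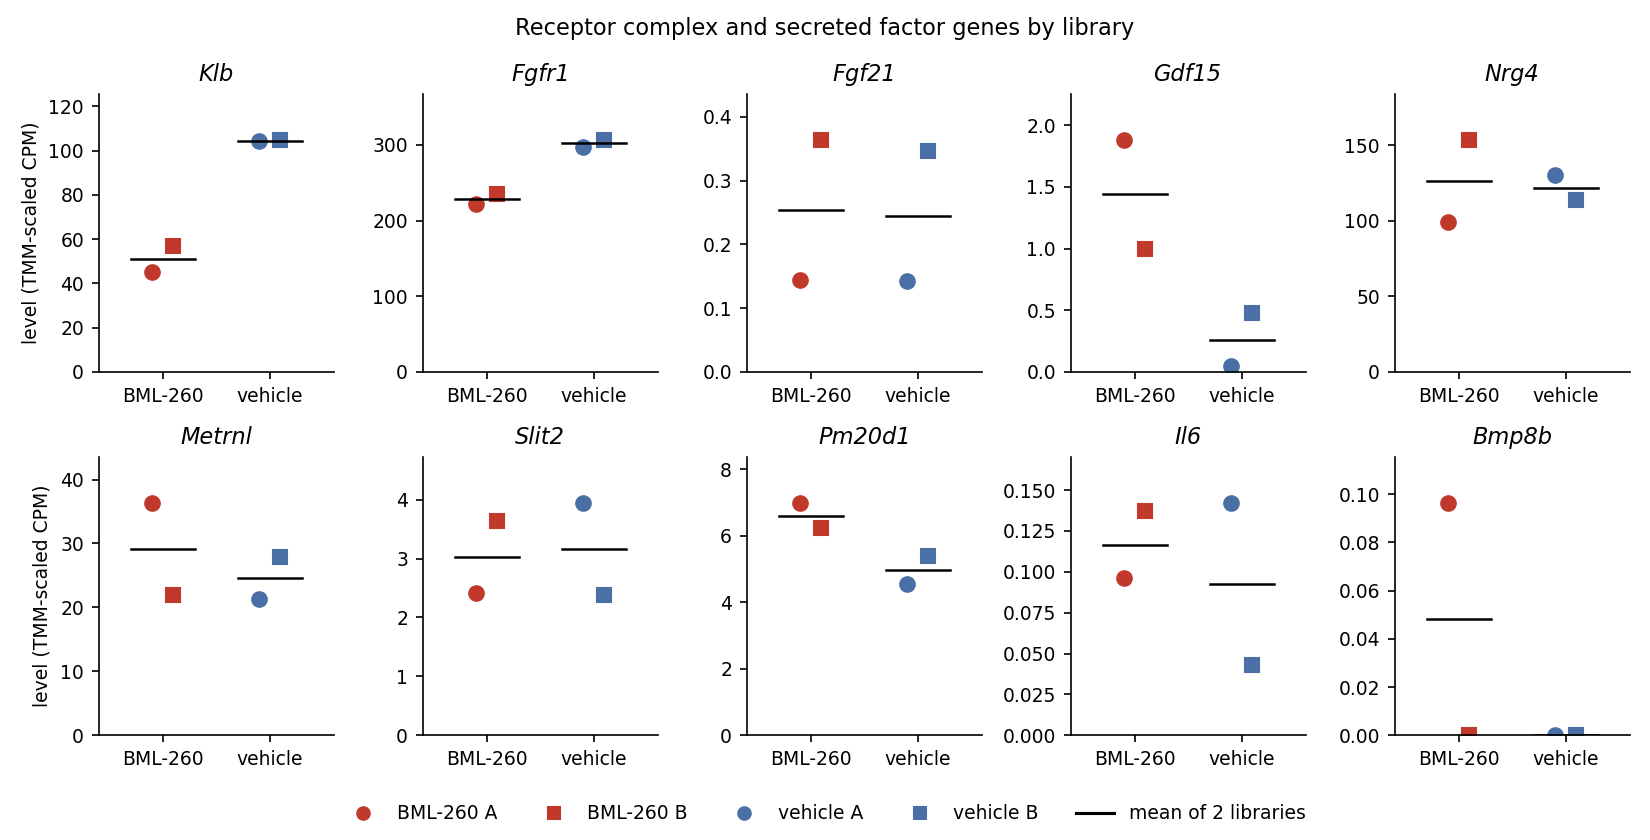
Level in TMM-scaled CPM (vertical axes from 0, with a scale of its own for each gene) of the 10 genes in BML-260 libraries (red) and vehicle libraries (blue); circles are the A libraries, squares the B libraries and bars the means of 2 libraries. Klb and Fgfr1 lie lower and Gdf15 and Pm20d1 higher in both BML-260 libraries, while the other 6 genes overlap.

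The upstream regions of Klb, Fgf21 and Gdf15 are shown because they belong to the receptor gene with the most distinct difference, to its ligand, and to the secreted factor gene with the largest fold change. They run from 250 bases before to 50 bases after the RefSeq transcript start on GRCm38.p6, and 8 of the 10 genes had such an entry (Fgfr1 and Pm20d1 did not). Each is written in the direction of transcription. Capitals mark matches, on either strand, to the cyclic AMP response core TGACG, the GC box GGGCGG, the C/EBP-ATF element TGATGNAA bound by stress response factors such as ATF4, and the TATA box TATAAA. The full cyclic AMP response element TGACGTCA, which holds the core, was searched as well.
Klb, chr5:65348161-65348460, plus strand: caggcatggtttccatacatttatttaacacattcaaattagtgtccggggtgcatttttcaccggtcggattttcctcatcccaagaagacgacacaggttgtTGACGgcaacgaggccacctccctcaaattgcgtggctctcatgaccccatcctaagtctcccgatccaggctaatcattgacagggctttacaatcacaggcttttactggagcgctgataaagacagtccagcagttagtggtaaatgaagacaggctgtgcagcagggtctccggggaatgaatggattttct
Fgf21, chr7:45615441-45615740, minus strand: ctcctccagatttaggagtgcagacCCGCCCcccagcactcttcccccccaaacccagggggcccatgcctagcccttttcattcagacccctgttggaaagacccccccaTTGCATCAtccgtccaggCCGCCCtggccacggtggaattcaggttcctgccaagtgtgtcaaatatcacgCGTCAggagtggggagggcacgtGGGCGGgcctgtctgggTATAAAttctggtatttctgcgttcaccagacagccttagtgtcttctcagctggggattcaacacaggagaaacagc
Gdf15, chr8:70632407-70632706, minus strand: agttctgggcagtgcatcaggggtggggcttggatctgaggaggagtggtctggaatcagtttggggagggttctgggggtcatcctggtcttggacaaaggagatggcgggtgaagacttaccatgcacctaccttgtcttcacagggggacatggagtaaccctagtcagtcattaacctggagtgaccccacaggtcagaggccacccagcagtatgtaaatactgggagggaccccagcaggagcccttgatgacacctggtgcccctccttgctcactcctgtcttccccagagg
The Klb window holds the cyclic AMP response core once, and the Fgf21 window holds it together with the C/EBP-ATF element, a TATA box and 3 GC boxes. RefSeq gives Gdf15 another start, with a window at chr8:70632046-70632345 that is not shown. None of these motifs is in either Gdf15 window. Of 32851 promoter windows of this length, 20.8% hold the core, 1.79% the full cyclic AMP response element, 3.97% the C/EBP-ATF element, 35.7% the GC box and 13.6% the TATA box. These matches describe the sequence and are not binding measurements.

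Klb (ENSMUSG00000029195, GRCm38 chromosome 5, 65348314 to 65384007, plus strand, protein coding) encodes the coreceptor that anchors FGF21 to the receptor. It had 45.1 and 56.9 CPM in the BML-260 libraries and 104.1 and 104.8 CPM in the vehicle libraries, from 936 and 1248 reads and from 2193 and 2425 reads. Both BML-260 libraries lay well below both vehicle libraries, which differed from each other by a factor of 1.01. The mean was 51.0 ± 8.33 CPM with BML-260 and 104.4 ± 0.51 CPM with vehicle (SD, n = 2 each). The log2 fold change was -1.04 (SE 0.15, 95% confidence interval -1.41 to -0.66), with an unadjusted p of 7.5e-04 (edgeR; 0.249 once adjusted over all genes). By that p, Klb ranked 46 among the 15643 tested genes and 7 among those lower with BML-260. DESeq2 gave the same log2 fold change with an adjusted p of 1.47e-05, and the authors' deposited table gives a log2 fold change of -0.96 with an adjusted p of 2.24e-05. Of the 10 genes, Klb is the 1 whose adjusted p there is under 0.05, as it is for 0.688% of all genes of the authors' deposited table, or 0.133% counting lower ones alone. Klb is not marked as significant by the authors. Leaving out any library kept the log2 fold change between -1.21 and -0.89. The vehicle libraries, between which the summed muscle markers differed from 460.0 to 12410 CPM, had nearly equal Klb levels; the part of muscle RNA in the Klb difference was not tested.

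Fgfr1 (ENSMUSG00000031565, chromosome 8, 25513654 to 25575718, plus strand, protein coding) encodes the signalling receptor of the complex, a tyrosine kinase also used by other fibroblast growth factors and expressed in stromal cells as well as adipocytes. It had 222.5 and 235.0 CPM with BML-260 and 297.6 and 306.6 CPM with vehicle. The groups did not overlap, as for 21.5% of all tested genes in that direction, and the libraries of a group were close to each other. The mean was 228.7 ± 8.80 CPM with BML-260 and 302.1 ± 6.34 CPM with vehicle (SD, n = 2 each). Its log2 fold change was -0.40 (SE 0.14, 95% confidence interval -0.76 to -0.05), with an unadjusted p of 0.0334 (edgeR; 0.423 once adjusted over all genes). DESeq2 gave an adjusted p of 0.068. The antisense gene Gm16159 overlaps its exons by 164 bases and held 3 and 1 reads in the BML-260 libraries and 0 in both vehicle libraries.

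Klb and Fgfr1 were also set against each other and against adipocyte genes within each library, using the authors' FPKM values, which account for transcript length. Klb stood at 16.9% and 20.2% of the Fgfr1 level in the BML-260 libraries and at 29.7% and 29.0% in the vehicle libraries. Against the geometric mean of 10 white adipocyte genes, such as Adipoq, Plin1 and Fabp4, Klb stood at 1.46% and 1.36% with BML-260 and at 2.13% and 2.30% with vehicle. Both Klb ratios were lower in each BML-260 library than in either vehicle library, with log2 differences of -0.67 and -0.66. Fgfr1 stood at 8.60% and 6.72% of the same adipocyte genes with BML-260 and 7.18% and 7.94% with vehicle, which overlap, with a log2 difference of 0.01. Against Pdgfra, a fibroblast and progenitor marker, Fgfr1 stood at 415.6% and 560.3% with BML-260 and 593.5% and 608.3% with vehicle. That ratio was lower in both BML-260 libraries, with a log2 difference of -0.32. With 2 libraries against 2, the smallest two-sided p an exact permutation test can give is 0.333, so these ratios are given as descriptions. All 10 adipocyte genes themselves had log2 fold changes below zero, with a median log2 fold change of -0.37. In whole tissue, fewer adipocytes, less RNA per adipocyte and a larger share of RNA from other tissue, such as muscle, cannot be told apart.

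**Figure D2:**
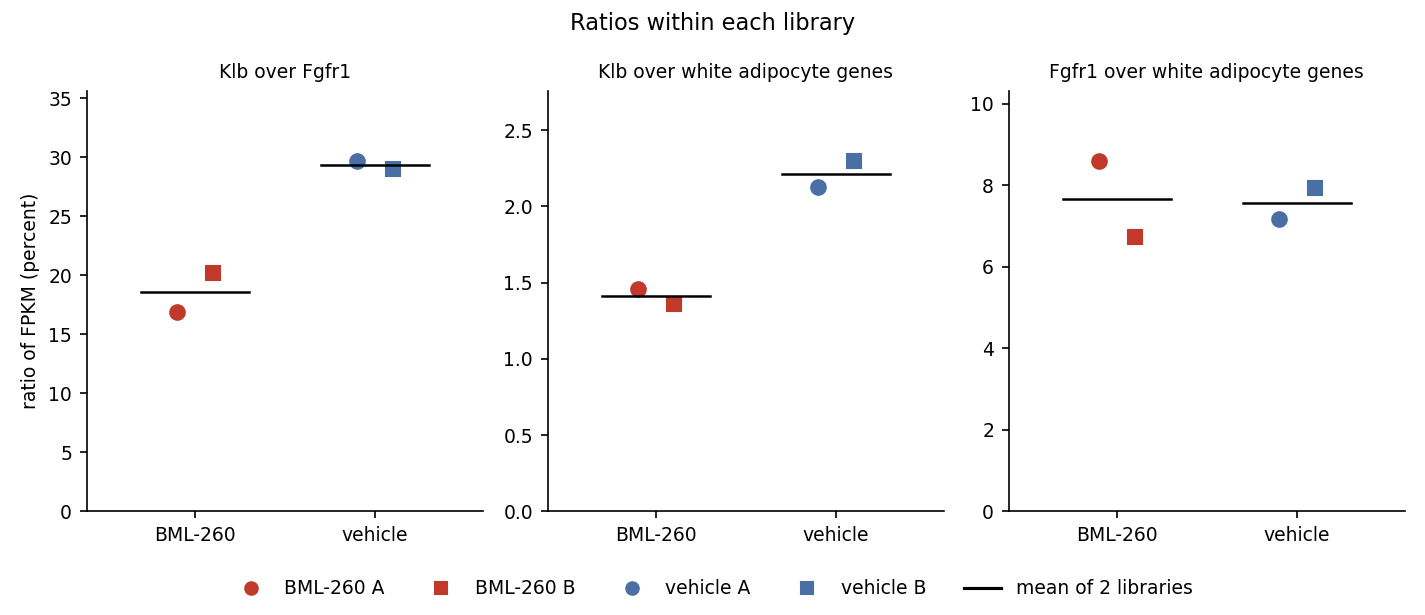
Ratios of FPKM within each library, in percent (vertical axes from 0), of Klb to Fgfr1, of Klb to the geometric mean of 10 white adipocyte genes and of Fgfr1 to the same mean, in BML-260 libraries (red) and vehicle libraries (blue); bars are means of 2 libraries. Both Klb ratios are lower in the BML-260 libraries, from 16.9% to 20.2% of Fgfr1 against 29.0% to 29.7%, while the Fgfr1 ratio overlaps.

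The ligand was scarce. Fgf21 (ENSMUSG00000030827, chromosome 7, 45613886 to 45615490, minus strand) had 3 and 8 reads in the BML-260 libraries and 3 and 8 reads in the vehicle libraries. These amount to 0.144 and 0.364 CPM with BML-260 and 0.142 and 0.346 CPM with vehicle, so the groups overlap fully. The sums of 11 and 11 reads gave a ratio of 1.03 (95% exact interval 0.407 to 2.63, counting error only), so a difference within that interval was not detectable at this depth.

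Among other members of the receptor system, Fgfr2, Fgfr3 and the receptor-like gene Fgfrl1 lay below zero, as Fgfr1 did. Lctl and Fap, which are not FGF receptor genes, lay above it. The list of 12 FGF receptors, Klothos and endocrine FGF genes, chosen with earlier results of these data known, had 7 tested members. By unadjusted p, 3 of them were lower and 1 higher, against 3.61% and 7.45% of all tested genes. The lower ones were Klb and Fgfr1, already described above, and Fgfr2, and the higher one was Lctl. After adjustment 0 passed in edgeR, and DESeq2 called 1 (Klb), against 2.59% of all tested genes. The median log2 fold change was -0.40 against 0.02 over all tested genes, or -0.32 over the 5 that are not Klb or Fgfr1. Fgfr2, a receptor that can also pair with beta-Klotho, had 7.17 and 10.2 CPM with BML-260 and 13 and 13.1 CPM with vehicle, for which the log2 fold change was -0.59 ± 0.23 (SE; adjusted p = 0.444 by edgeR). Fgfr3 had 2.84 and 3.69 CPM with BML-260 and 5.13 and 4.58 CPM with vehicle, a log2 fold change of -0.57 (SE 0.28). Lctl, a Klotho-related gene, went the other way, with 34.5 and 28.2 CPM with BML-260 and 17.1 and 25 CPM with vehicle, a log2 fold change of 0.57 (SE 0.22). Fgfr4, the main FGF receptor of liver, was too low to test, with 11 and 9 reads with BML-260 and 2 and 2 reads with vehicle. The Fgfr4 read sums gave a ratio of 5.17 (95% exact interval 1.73 to 20.8, counting error only). The Klotho gene Kl held 0 and 1 reads with BML-260 and 1 and 2 reads with vehicle.

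Genes that relay or damp FGF receptor signals were split in direction, 17 above zero and 10 below. The relay and feedback list of 27 genes, from the docking protein gene Frs2 to the feedback genes of the ERK kinases, had 4 members higher and 0 lower by unadjusted p, 0 passing after adjustment in edgeR or DESeq2, and a median log2 fold change of 0.07. Of all tested genes, 7.45% were higher and 3.61% lower by unadjusted p. The 4 higher genes of the list were Dusp6, Etv4, Etv5 and Egr1. Dusp6, an ERK phosphatase, had 31.8 and 29.9 CPM with BML-260 and 19.5 and 22.4 CPM with vehicle, for which the log2 fold change was 0.56 ± 0.14 (SE; adjusted p = 0.33 by edgeR). The transcription factor gene Etv5 had 14.9 and 11 CPM with BML-260 and 7.74 and 9.08 CPM with vehicle. Etv4 was lower in level, at 1.44 and 2.23 CPM with BML-260 and 0.142 and 0.562 CPM with vehicle. Its log2 fold change of 2.35 became 1.68 with vehicle A left out and 3.64 with vehicle B left out. The inhibitors Spry1, Spry2, Spry4, Spred1, Spred2 and Il17rd had log2 fold changes between -0.21 and 0.34, with unadjusted edgeR p-values of 0.0737 or more. Many ligands besides FGF21 induce these genes.

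Gdf15 (ENSMUSG00000038508, chromosome 8, 70629393 to 70632456, minus strand, protein coding) encodes a stress-induced hormone that curbs food intake through the receptor GFRAL in the hindbrain. It had 39 and 22 reads in the BML-260 libraries and 1 and 11 reads in the vehicle libraries, or 1.88 and 1.0 CPM against 0.0475 and 0.475 CPM. Both BML-260 libraries were higher, as for 22.9% of all tested genes, but the vehicle libraries differed from each other by a larger factor than the BML-260 libraries did. The log2 fold change was 2.40 (SE 0.88, 95% confidence interval 0.17 to 4.63), with an unadjusted p of 0.0391 (edgeR; 0.434 once adjusted over all genes). DESeq2 gave an adjusted p of 0.413, and the log2 fold change in the authors' deposited table is 0.56. Without vehicle A, which held the single read, the log2 fold change was 1.56, and without vehicle B it was 4.76. In the vehicle group the library with more muscle transcripts also had more Gdf15, while among BML-260 libraries Gdf15 was higher in A and the muscle markers in B; the part of muscle or lymphoid RNA in this difference was not tested. Its receptor gene Gfral had 0 reads in all 4 libraries, and Ret, the partner of that receptor, had a log2 fold change of 0.40 (SE 0.19).

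A list of integrated stress response genes and other known inducers or companions of Gdf15 and Fgf21, Ppara among them, was mixed in direction. By unadjusted p, 3 of the 14 genes in that list were higher and 2 lower, against 7.45% and 3.61% of all tested genes. After adjustment DESeq2 kept 2 of the higher and 1 of the lower ones, against 2.59% of all tested genes in either direction. EdgeR kept 0, and the median log2 fold change was 0.10. Ppara, a fatty acid receptor gene that drives Fgf21 in liver, had 48.5 and 54.5 CPM with BML-260 and 25.3 and 24.8 CPM with vehicle, for which the log2 fold change was 1.04 ± 0.12 (SE; adjusted p = 0.216 by edgeR and 6.31e-06 by DESeq2). Atf3, a stress-induced repressor, had 12.0 and 6.88 CPM with BML-260 and 3.51 and 3.63 CPM with vehicle. Sesn2 was also higher, at 29.1 and 26.6 CPM with BML-260 and 16.6 and 19.6 CPM with vehicle. In contrast, Atf5 and the amino acid synthesis gene Asns were lower, with log2 fold changes of -0.46 (SE 0.12) and -0.51 (SE 0.20). Atf4 itself had 0.27 (SE 0.11), with 117.9 and 117.9 CPM with BML-260 and 95.5 and 100.4 CPM with vehicle. The classical stress markers Ddit3 and Trib3 had -0.15 (SE 0.15) and -0.36 (SE 0.27).

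Nrg4 (ENSMUSG00000032311, chromosome 9, 55220222 to 55326844, minus strand) encodes an epidermal growth factor family ligand of ERBB4, secreted by brown fat and known in mice to restrain fat synthesis in liver. It had 99.1 and 153.6 CPM with BML-260 and 130.1 and 113.8 CPM with vehicle. The BML-260 libraries lay on either side of both vehicle libraries. Its log2 fold change was 0.05 (SE 0.23, 95% confidence interval -0.54 to 0.64, edgeR adjusted p = 0.952), which corresponds to a fold between 0.688 and 1.56. Nrg4 shares 368 exonic bases with Fbxo22 on the opposite strand, so single reads there cannot be assigned without a strand setting. Fbxo22 had 1407 and 1805 expected counts with BML-260 and 1676 and 1517 with vehicle, not scaled to library size. Of its receptors, Erbb4 had 1.49 and 1.91 CPM with BML-260 and 2.28 and 0.605 CPM with vehicle, and Erbb3 had 6.36 and 4.51 CPM with BML-260 and 7.40 and 3.80 CPM with vehicle, both with overlapping groups.

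Metrnl (ENSMUSG00000039208, chromosome 11, 121701544 to 121716306, plus strand) encodes a secreted protein induced by cold in fat and by exercise in muscle of mice. It had 36.3 and 21.9 CPM with BML-260 and 21.3 and 27.9 CPM with vehicle. BML-260 A was the highest library, and BML-260 B lay between the vehicle libraries. The log2 fold change was 0.24 (SE 0.28, 95% confidence interval -0.46 to 0.95, edgeR adjusted p = 0.777), and -0.18 without BML-260 A. That library also had the highest B cell and macrophage marker sums, the macrophage sums being 2438 and 1261 CPM with BML-260 and 1699 and 1962 CPM with vehicle; the part of immune cell RNA was not tested.

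Slit2 (ENSMUSG00000031558, chromosome 5, 47983138 to 48307733, plus strand) encodes a large guidance protein, a cleaved fragment of which is secreted by beige fat and promotes heat production in mice. It had 2.41 and 3.64 CPM with BML-260 and 3.94 and 2.38 CPM with vehicle, fully overlapping, for a log2 fold change of -0.06 (SE 0.40, 95% confidence interval -1.06 to 0.94, edgeR adjusted p = 0.97). On the FPKM scale the order within the vehicle group turned round, at 0.289 and 0.730 FPKM with BML-260 and 0.542 FPKM in vehicle A and 0.736 FPKM in vehicle B. The transcript length implied by counts and FPKM was 8651 and 4619 bases in the BML-260 libraries and 7504 and 3244 bases in the vehicle libraries, so the length behind the FPKM values was not the same in each library. Robo1, a SLIT receptor gene, had 4.57 and 3.10 CPM with BML-260 and 1.23 and 2.64 CPM with vehicle, a log2 fold change of 0.98 (SE 0.46) that became 0.51 with vehicle A left out and 1.63 with vehicle B left out. The endothelial receptor gene Robo4 had 35.4 and 49.7 CPM with BML-260 and 58.8 and 58.1 CPM with vehicle, a log2 fold change of -0.46 (SE 0.19). All 5 endothelial markers of a separate list lay below zero too, with a median of -0.39.

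Pm20d1 (ENSMUSG00000042251, chromosome 1, 131797381 to 131821473, plus strand) encodes a secreted enzyme of thermogenic fat that joins fatty acids to amino acids, giving lipids that uncouple mitochondria. It had 6.98 and 6.24 CPM with BML-260 and 4.56 and 5.40 CPM with vehicle, higher in both BML-260 libraries. The log2 fold change was 0.41 (SE 0.24, 95% confidence interval -0.19 to 1.01), with an unadjusted p of 0.143 (edgeR; 0.575 once adjusted over all genes). On the FPKM scale the groups overlapped, at 1.43 and 1.07 FPKM with BML-260 and 0.897 and 1.35 FPKM with vehicle. The implied transcript length was again unequal, at 5084 and 5401 bases with BML-260, 5244 bases in vehicle A and 4011 bases in vehicle B.

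Il6 (ENSMUSG00000025746, chromosome 5, 30013114 to 30019981, plus strand) encodes the cytokine interleukin 6, which brown fat releases under stress. It had 2 and 3 reads with BML-260 and 3 and 1 reads with vehicle, at about the 3 reads taken as the limit of detection per library. The read sums of 5 and 4 gave a ratio of 1.29 (95% exact interval 0.278 to 6.52, counting error only). Its receptor genes were well expressed, with Il6ra at 49.4 and 38.0 CPM with BML-260 and 41.5 and 52.0 CPM with vehicle, and Il6st at 230.7 and 250.8 CPM with BML-260 and 237.3 and 237.8 CPM with vehicle. Their log2 fold changes were -0.10 (SE 0.19) and 0.02 (SE 0.14). Bmp8b (ENSMUSG00000002384, chromosome 4, 123105165 to 123132099, plus strand), a growth factor gene that sensitises mouse brown fat to noradrenaline, had 2 and 0 reads with BML-260 and 0 and 0 reads with vehicle. It shares 133 exonic bases with Ppie on the opposite strand. Ppie had 213 and 271 expected counts with BML-260 and 347 and 337 with vehicle, not scaled to library size. Whether the 2 Bmp8b reads lie in the shared bases was not tested. The limit of 3 reads amounts to 0.142 CPM in vehicle A and 0.130 CPM in vehicle B, and no library reached it, so no fold is given. Its paralogue Bmp8a was low as well, at 0.482 and 0.319 CPM with BML-260 and 0.142 and 0.735 CPM with vehicle.

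**Figure D3:**
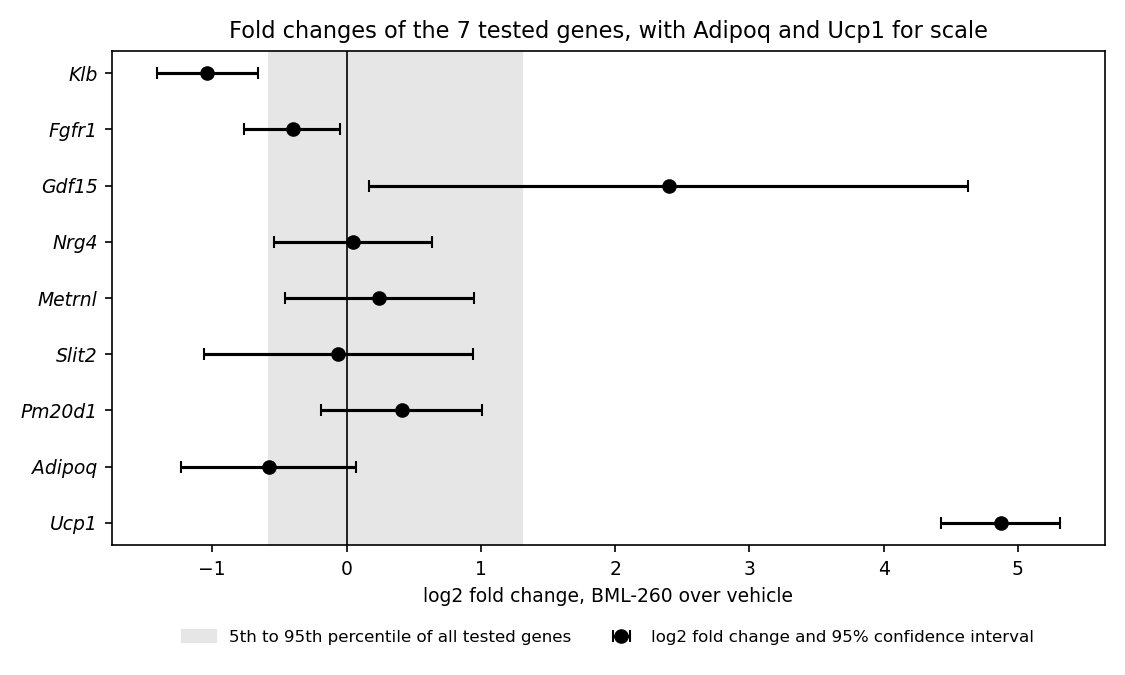
Log2 fold change, BML-260 over vehicle (horizontal axis), of the 7 tested genes and of Adipoq and Ucp1, with 95% confidence intervals from the edgeR fit as bars; the grey band runs from the 5th to the 95th percentile of all tested genes, -0.58 to 1.31. The intervals of Klb and Fgfr1 lie below 0 and that of Gdf15 above 0, while those of Nrg4, Metrnl, Slit2, Pm20d1 and Adipoq include 0.

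Per transcript length the genes spanned a wide range. Nrg4 and Fgfr1 led, at 55.1 and 100.5 FPKM with BML-260 and 78.3 and 77.4 FPKM with vehicle for Nrg4, and 65.6 and 67.9 FPKM with BML-260 and 87.3 and 88.0 FPKM with vehicle for Fgfr1, so their order is within the spread between libraries. The length implied for Nrg4 differed between libraries, at 1870 and 1414 bases with BML-260 and 1716 and 1477 bases with vehicle. Metrnl and Klb followed in level. Klb lay below Metrnl in both BML-260 libraries, at 11.1 and 13.7 FPKM, and above it in both vehicle libraries, at 25.9 and 25.5 FPKM. Metrnl had 33.5 and 19.4 FPKM with BML-260 and 20.8 and 25.2 FPKM with vehicle. By the mean over all libraries Pm20d1 was next at 1.19 FPKM, and Gdf15, Slit2 and Fgf21 lay below it with ranges that overlap. In BML-260 A, however, Gdf15 at 1.67 FPKM lay above Pm20d1 at 1.43 FPKM. Il6 averaged 0.14 FPKM, and Bmp8b was last.

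The thermogenic markers are given beside these genes. The 8 genes of the brown and beige marker list, Ucp1 among them, were all above zero with a median log2 fold change of 1.91, Cidea having 1.24, Dio2 3.68 and Prdm16 0.09. Cox7a1 and Cox8b of that list had 2.58 and 0.82, and the part of muscle RNA in them was not tested. The 7 tested receptor and batokine genes had 4 log2 fold changes above zero and 3 below, with a median of 0.05. This is a description, and the difference between the lists was not tested. Without BML-260 B the median of the 7 was -0.30.

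**Figure D4:**
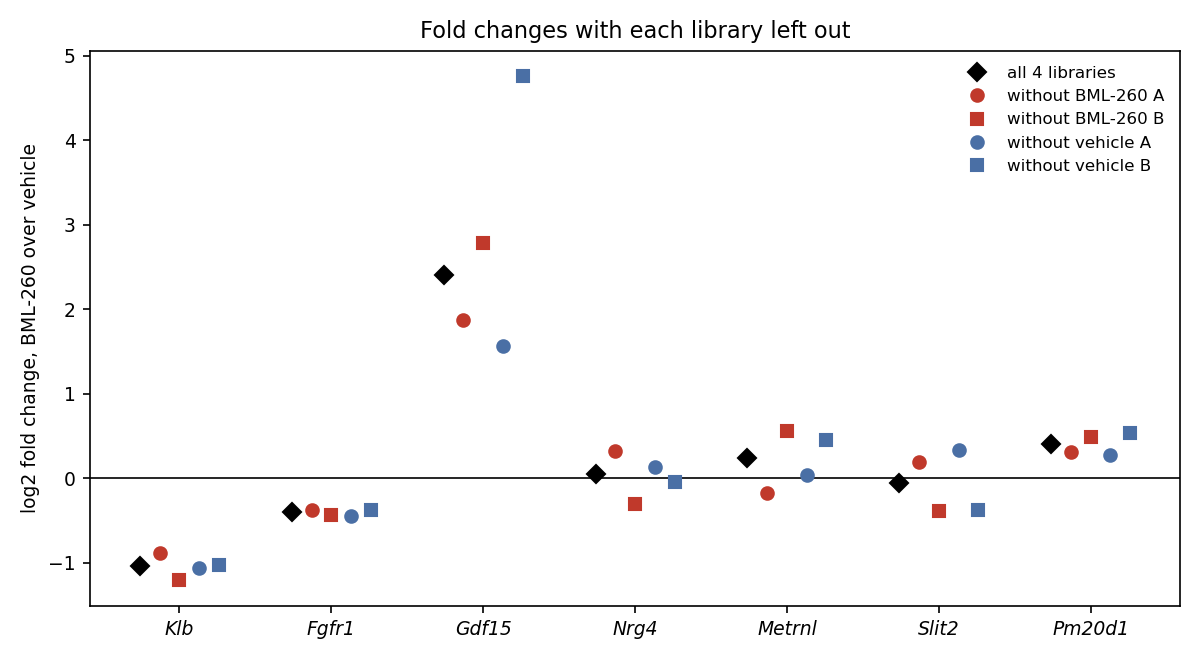
Log2 fold change, BML-260 over vehicle (vertical axis), of the 7 tested genes with all 4 libraries (black) and with each library left out in turn (red, a BML-260 library; blue, a vehicle library). Klb and Fgfr1 stay below 0 and Pm20d1 and Gdf15 above 0 in each fit, Gdf15 between 1.56 and 4.76, while Nrg4, Metrnl and Slit2 change sign.

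Other secreted factors and receptors were described in the same way. Of 19 further factors of thermogenic fat, 18 were tested, with 3 higher and 3 lower by unadjusted p, against 7.45% and 3.61% of all tested genes. After adjustment 1 passed in DESeq2, against 2.59% of all tested genes, and 0 in edgeR. The median log2 fold change of the list was -0.15. Epdr1, a secreted ependymin-related protein gene linked to brown adipogenesis, had 26.3 and 23.7 CPM with BML-260 and 12.3 and 15.5 CPM with vehicle, for which the log2 fold change was 0.84 ± 0.17 (SE; adjusted p = 0.292 by edgeR and 0.03 by DESeq2). Fndc5 and Mstn, the other 2 higher genes, are also expressed by muscle. Fndc5, the irisin precursor gene, had 6.69 and 7.43 CPM with BML-260 and 2.04 and 3.33 CPM with vehicle, and Mstn, the myostatin gene, 13.1 and 18.6 CPM with BML-260 and 0.0949 and 3.37 CPM with vehicle, in the library order of the muscle markers. The part of muscle RNA in the Fndc5 and Mstn differences was not tested. The 3 lower genes were Fst, which encodes the activin antagonist follistatin, Bmp4, a growth factor gene that commits precursors to fat, and Rbp4, which encodes the retinol carrier. Their log2 fold changes were -0.67 (SE 0.18), -1.01 (SE 0.28) and -0.39 (SE 0.14). Vegfa, an angiogenic factor gene, had 283.2 and 395.8 CPM with BML-260 and 384.5 and 375.1 CPM with vehicle, with overlapping groups.

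Of 20 receptor genes of the other factors, 17 were tested and their median log2 fold change was -0.01. By unadjusted p, 1 was higher and 1 lower, against 7.45% and 3.61% of all tested genes, with 0 after adjustment in edgeR or DESeq2. Acvr1c, which encodes the adipocyte receptor ALK7, had 88.9 and 117.7 CPM with BML-260 and 168.3 and 136.0 CPM with vehicle, a log2 fold change of -0.56 (SE 0.20). Bmpr1b, a bone morphogenetic protein receptor gene, had 0.963 and 1.64 CPM with BML-260 and 0.0949 and 0.432 CPM with vehicle. Its log2 fold change of 2.26 became 1.56 with vehicle A left out and 3.70 with vehicle B left out. Of 16 family members of the secreted factors, 12 were tested, with 1 higher and 1 lower by unadjusted p, against the same 7.45% and 3.61%. In either tool 0 passed after adjustment, and the median was 0.24. Cntf, a ciliary neurotrophic factor gene of the interleukin 6 family, had 0.770 and 2.37 CPM with BML-260 and 4.6 and 4.32 CPM with vehicle, a log2 fold change of -1.50 (SE 0.54) that became -0.93 with BML-260 A left out and -2.53 with BML-260 B left out. Slit1 had 0.963 and 1.59 CPM with BML-260 and 0.427 and 0.605 CPM with vehicle. Gdf11, a growth factor gene of the Gdf15 superfamily, had 5.63 and 6.65 CPM with BML-260 and 2.14 and 4.24 CPM with vehicle. The relatives closest in name to members with overlapping groups, Slit3 and Metrn, had -0.17 (SE 0.15) and 0.37 (SE 0.21).

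**Figure D5:**
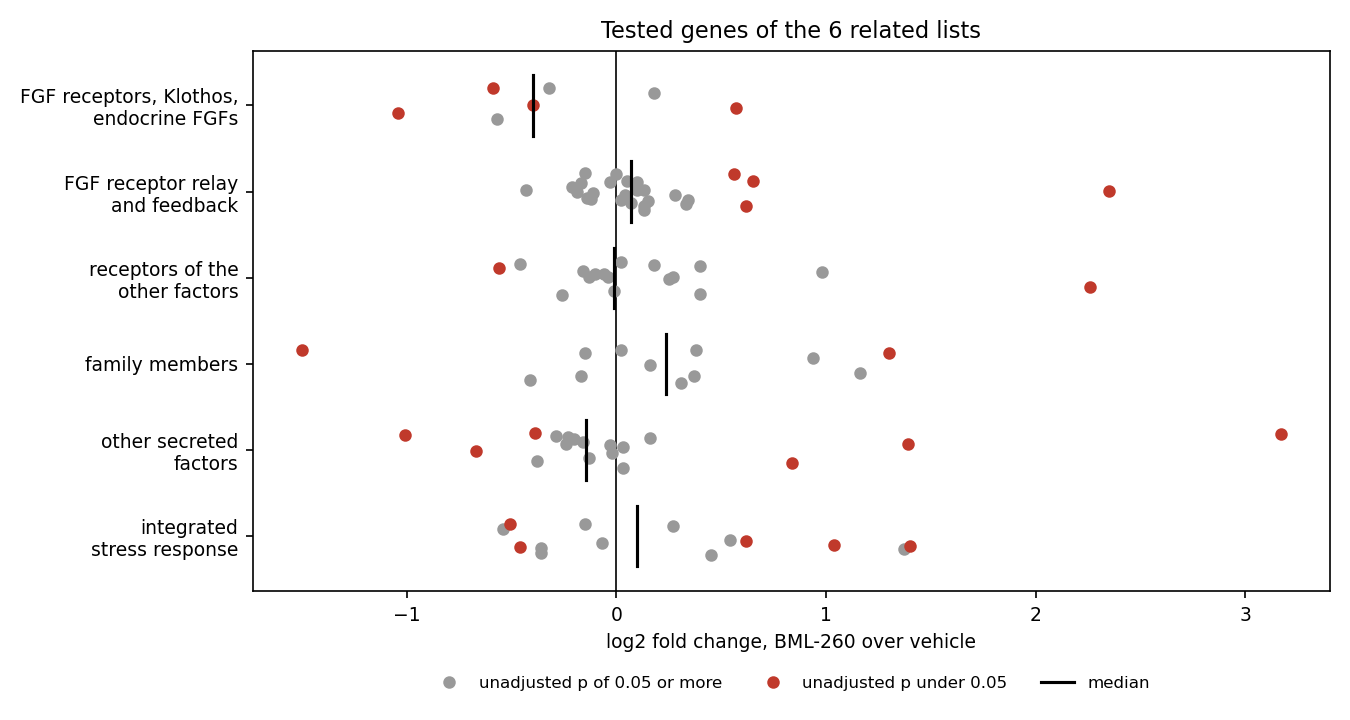
Log2 fold change, BML-260 over vehicle (horizontal axis), of each tested gene in the 6 related lists (rows), red where the unadjusted edgeR p is under 0.05; black bars are list medians, and the first list holds Klb and Fgfr1. The medians run from -0.40 in the FGF receptor list to 0.24 in the family member list.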

How the data were processed

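The tools listed in the submitters' processing notes are HISAT2 2.1.0, RSEM 1.2.31 and DESeq2 1.10.1, and the listed build is GRCm38.p5. What each was used for, which annotation was counted and whether strand was used is not given in the sources used here. The authors deposited expected counts per gene without normalization, of which 76.5% to 77.8% of values above 0 were whole, and FPKM values, per the file headers. They also deposited group means, also as log2 values, and their own log2 fold changes with p-values. Expected counts were rounded. Coordinates came from GENCODE vM21, matched by identifier.

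The filterByExpr function kept 15643 genes. Groups were compared by the quasi-likelihood F test of edgeR 4.0.16 in R 4.3.3, using TMM factors and group as the only term, two-sided, Benjamini-Hochberg adjusted over all tested genes, tested on simulated data first. Standard errors are the log2 fold change over the square root of F. Alternatives were DESeq2 1.42.0, limma-voom (limma 3.58.1), other scaling and filters, limma on log2(FPKM + 0.1), leaving out each library, and the library letter as a replicate block. Read intervals are exact Poisson or binomial and cover counting error only.

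The genes and lists were chosen with earlier results of these data known. Named are the 10 genes, from each related list the 3 tested genes with the smallest p, fixed receptors and marker genes, and, for the 3 genes with the smallest p, the 3 protein coding genes nearest in profile (for Gdf15 not reported here); others were named after their values were seen.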

Additional observations from a re-analysis of the deposited data

How the results depend on the processing

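With 2 libraries a group, edgeR called 0 of the 7 tested genes, and also 0 with limma-voom, other scaling factors, a mean count of 50 or more, log2(FPKM + 0.1), the replicate block or any library left out. DESeq2 called 1, Klb, and edgeR without a filter on low counts also called 1, Klb (adjusted p = 0.00311), in a fit that called 2.66% of 24481 genes. Genes at an unadjusted p under 0.05 numbered 3, against 1 with the replicate block and 1 to 3 with a library left out. Klb had such a p in each of these fits, whereas Fgfr1 had it in none but the fit without BML-260 B. Whether the letters shared by the groups pair the libraries was not established. The correlation of same-letter deviations was -0.023 across genes. With 2 libraries a group, the deviations of A and B mirror each other, so A and B give the same value. It shows no marked deviation shared by letter across genes as a whole, and does not tell how the libraries were made. The median log2 fold change of 0.05 ranged from -0.30 to 0.19 with a library left out. Signs turned only for genes with a log2 fold change between -0.10 and 0.25 in the main fit, some of which ranged widely with a library left out. Nrg4 was -0.02 with library totals, -0.07 on FPKM and -0.30 to 0.32 with a library left out; Metrnl ranged from -0.18 to 0.56 and Slit2 from -0.39 to 0.33. Il6ra ranged from -0.32 to 0.08 and Erbb4 from -0.42 to 1.46. Il6st was -0.04 with library totals, -0.03 on FPKM and -0.04 to 0.06 with a library left out. Erbb3 was 0.03 with limma-voom, 0.01 with the replicate block and -0.45 to 0.49 with a library left out. The causes were not tested. Depth limits Fgf21, Il6, Bmp8b and Gdf15.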

Other observations

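The genes whose profile over the 4 libraries lay nearest to that of Klb, by Euclidean distance of centred log2 CPM among 13118 protein coding genes with a mean of at least 1 CPM, were Prss12, Bcas1 and Cacna1g, with distances of 0.044, 0.075 and 0.13. Prss12, a secreted serine protease gene, had 1.97 and 2.55 CPM with BML-260 and 4.89 and 4.84 CPM with vehicle. Nearest to Fgfr1 were Psph, Dhx32 and Ubox5, and Psph, which makes serine, had 19.8 and 20.9 CPM with BML-260 and 26.7 and 26.9 CPM with vehicle. With 4 libraries such likeness is a description of these libraries.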
